A study of Mus musculus with 7 samples.

Results

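Costimulatory and coinhibitory ligands are surface proteins with which an antigen-presenting cell tells a T cell how to answer the antigen it sees. The 10 genes described here encode such proteins of medullary thymic epithelial cells (mTECs): Cd80, Cd86, Cd40, Icosl, Cd274, Pdcd1lg2, Cd276, Vtcn1, Icam1 and Cd83. They were chosen by name from a table of 55536 genes, and all 10 were found there. mTECs display self antigens to developing T cells, so that thymocytes that react too strongly are deleted or become regulatory T cells. CD80 and CD86 engage CD28 on thymocytes and are also bound by the inhibitory receptor CTLA-4, while PD-L1 and PD-L2 engage the inhibitory receptor PD-1. High surface CD80 together with high MHC class II marks mature mTECs, and CD40, a receptor triggered by CD40 ligand on thymocytes, helps drive that maturation through NF-kB.

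RNA was sequenced from EPCAM-positive mTECs sorted from mouse thymus, in 7 libraries. The 4 Cre-negative libraries (46, 48, 75 and 77, numbered as in their labels) were Cre(-) Ikzf1fl/fl Pou2f3-/-, and the 3 Cre-positive libraries (45, 76 and 80) were Cre(+) Ikzf1fl/fl Pou2f3-/-. All animals therefore carried 2 floxed alleles of Ikzf1, which encodes Ikaros, a zinc finger transcription factor, and lacked Pou2f3, the factor that tuft cells need, so that the controls are themselves Pou2f3 mutants. The sources used here do not give the Cre driver, the floxed exon, or the age and sex of the animals. Nor do they say whether libraries came from separate animals, so p-values measure only the spread between libraries, which may be technical. The design text states the purpose as finding the effect of Ikaros on expression when tuft cells are missing.

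The libraries held between 9815958 and 12599078 reads. In the order of libraries just given, Ikzf1 stood at 1118.7, 1149.5, 1146.8 and 1219.0 normalized counts without Cre and at 1310.3, 1828.6 and 1677.5 with Cre (adjusted p = 0.0916), a sum over the gene that cannot check the deletion. Of the 8 mTEC markers, Epcam (3882.7 to 6771.2 normalized counts over the 7 libraries), Krt5, Krt14, Krt8, Cdh1, Aire and Fezf2 were read in every library. Ccl21a, which has near-identical copies between which reads cannot be placed with certainty, was listed at 0 in all of them. Krt5 and Krt14 were called higher and Aire lower, and the 8 markers summed to 23308.6 to 25967.9 normalized counts without Cre and 25116.1 to 31228.5 with Cre. Of 5 cortical epithelial markers 1 was lower, the chemokine gene Ccl25. Their sum was 12096.7 to 15220.2 without Cre and 5897.0 to 10617.6 with Cre, most of it from Ccl25 (means 10478.8 and 6075.9). The other 4 were not called and their groups overlapped, although all 5 had a negative log2 fold change. Normalized counts are read counts divided by a size factor per library. They were compared with limma, and a gene was called where its Benjamini-Hochberg adjusted p over 22878 genes was under 0.05.

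In Cre-positive libraries 6 of the 10 genes were lower, Cd80, Cd86, Cd274, Pdcd1lg2, Cd83 and Icosl, and none was higher. The median log2 fold change of the 10 genes was -1.43, or -1.18 without the barely read Vtcn1, where that of all genes tested was -0.10. Of all genes tested 13.8% were called, 9.11% lower and 4.66% higher. All 10 genes passed the filter on low values, but Vtcn1 passed it only through its Cre-negative reads. Cd40, Cd276, Vtcn1 and Icam1 were not called. In these pools of sorted cells, a smaller share of cells that express a gene and less RNA per cell cannot be told apart.

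**Figure D1:**
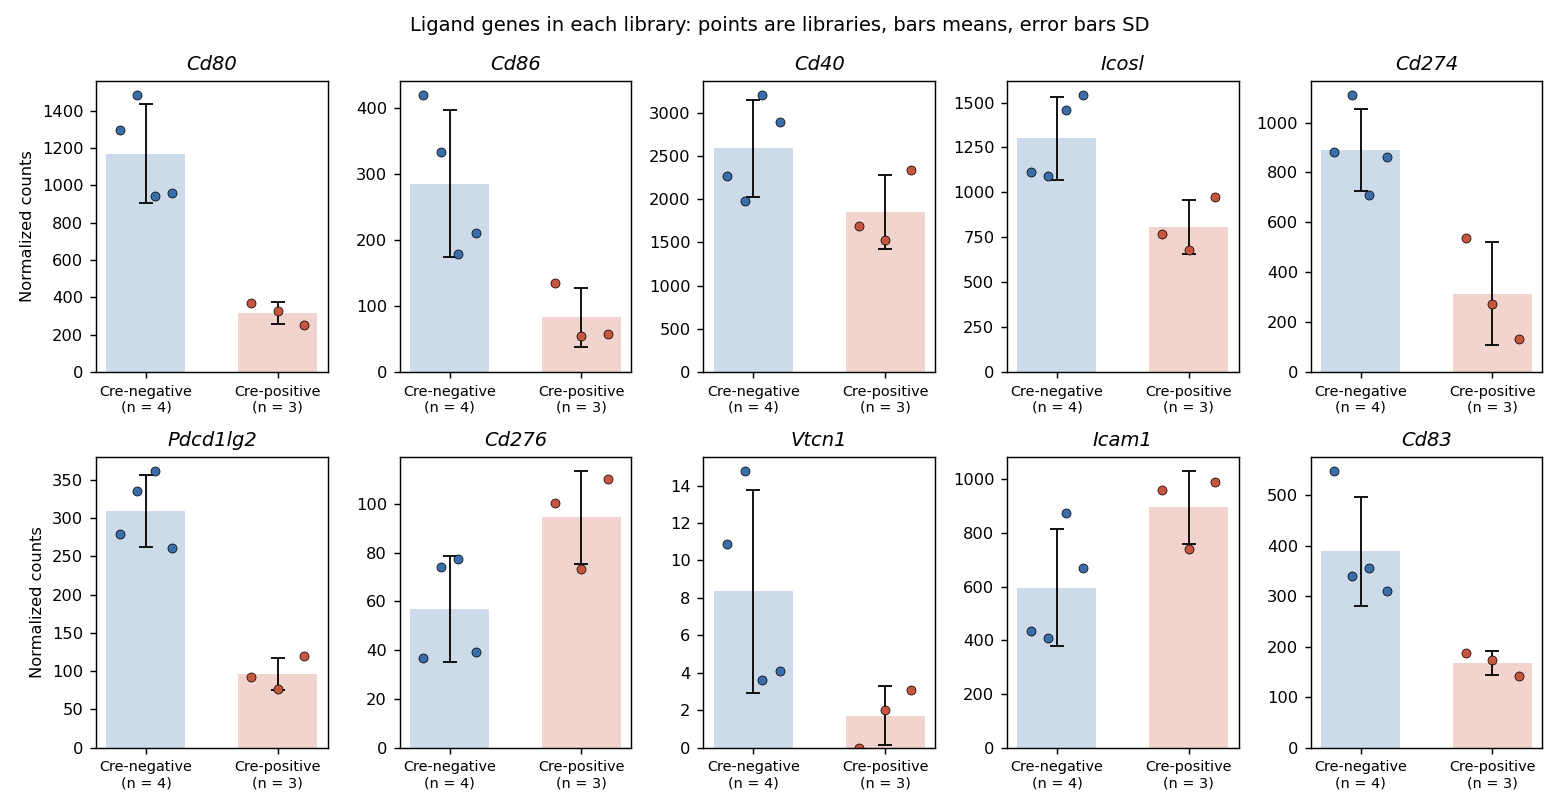
Normalized counts (y axis, linear from 0) of the 10 ligand genes, with 1 point per library (left to right 46, 48, 75 and 77, then 45, 76 and 80), bars at the group means and error bars of 1 SD. Every Cre-positive point lies under every Cre-negative point for Cd80, Cd86, Icosl, Cd274, Pdcd1lg2, Vtcn1 and Cd83, whereas the groups overlap for Cd40, Cd276 and Icam1.

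The sequence before the transcription start is shown for 4 genes: Cd80, Cd274 and Pdcd1lg2, which were called lower with log2 fold changes between -1.87 and -1.68, and Icam1, which was not called. Each is the 250 bases upstream of the RefSeq start on build GRCm38.p6, plus strand. Capitals mark the letters GGGAA, the core bound by Ikaros proteins, and a loose form of the NF-kB site, GGG and CC with any 5 bases between them, each searched on both strands and allowed to overlap. The windows are chr16:38458683-38458932 for Cd80, chr19:29367188-29367437 for Cd274, chr19:29410669-29410918 for Pdcd1lg2 and chr9:21015690-21015939 for Icam1.
Cd80: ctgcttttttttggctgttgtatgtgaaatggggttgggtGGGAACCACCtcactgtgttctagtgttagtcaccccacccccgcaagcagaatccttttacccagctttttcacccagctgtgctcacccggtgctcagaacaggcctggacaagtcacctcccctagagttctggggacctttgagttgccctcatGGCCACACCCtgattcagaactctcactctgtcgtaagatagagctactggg
Cd274: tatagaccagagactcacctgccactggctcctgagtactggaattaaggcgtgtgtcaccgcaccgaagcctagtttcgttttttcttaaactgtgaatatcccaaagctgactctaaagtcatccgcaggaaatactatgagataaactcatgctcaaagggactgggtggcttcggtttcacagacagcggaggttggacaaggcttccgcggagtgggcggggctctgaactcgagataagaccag
Pdcd1lg2: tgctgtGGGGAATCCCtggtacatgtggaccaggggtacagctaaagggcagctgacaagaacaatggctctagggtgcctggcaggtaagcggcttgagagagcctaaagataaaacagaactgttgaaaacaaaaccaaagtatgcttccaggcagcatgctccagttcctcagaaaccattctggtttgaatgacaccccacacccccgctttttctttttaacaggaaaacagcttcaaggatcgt
Icam1: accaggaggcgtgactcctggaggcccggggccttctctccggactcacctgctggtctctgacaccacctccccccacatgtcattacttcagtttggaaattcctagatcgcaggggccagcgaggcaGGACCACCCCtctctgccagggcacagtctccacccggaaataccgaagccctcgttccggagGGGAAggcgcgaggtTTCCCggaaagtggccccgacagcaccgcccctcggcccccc

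The Cd80 window held 1 GGGAA, which lay inside 1 of its 2 NF-kB-type matches. Cd274 held neither string. In Pdcd1lg2 GGGGAATCCC was an NF-kB-type match on both strands and contains GGGAA. Icam1 held 2 GGGAA matches and 1 NF-kB-type match, and its second GGGAA match overlaps TTCCCGGAA, which has the letters TTCNNNGAA of the site bound by activated STAT factors. GGGAA occurred in 4 and the NF-kB-type string in 5 of the 7 ligand windows in the table, where 56.2% and 45.8% of all 32851 windows of this length held them. TTCNNNGAA occurred in 1 of the 7 and in 7.02% of all windows. The interferon response letters, GAAA and GAAA with any 2 bases between them, occurred in none of the 7 and in 2.98% of all windows. A match in letters is a description and not a bound site.

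The CD28 ligands Cd80 and Cd86 had the largest falls among the called ligands. Cd80 (ENSMUSG00000075122, chromosome 16, 38458933 to 38486933 on GRCm38, plus strand) stood at 1297.2, 1484.4, 942.3 and 956.3 normalized counts without Cre (46, 48, 75 and 77, the order used throughout) and at 368.9, 327.5 and 254.3 with Cre (45, 76 and 80). The lowest Cre-negative library was thus well above the highest Cre-positive one. The Cre-positive mean was 27.1% of the Cre-negative mean, a log2 fold change of -1.87 (SE 0.22, limma adjusted p = 2.51e-04). Cd86 (ENSMUSG00000022901, chromosome 16, 36603869 to 36666081, minus strand) had 419.8, 332.9, 179.3 and 209.9 normalized counts in Cre-negative libraries and 134.8, 55.1 and 58.1 in Cre-positive libraries. The groups did not overlap, although Cre-negative 75 stood only a little above Cre-positive 45. Its log2 fold change was -1.82 (SE 0.40, adjusted p = 0.00937). Groups that did not overlap and were lower in Cre-positive libraries were found for 6 of the 9 ligand genes other than Vtcn1, and for 14.5% of all genes tested.

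The 2 CD28 ligands were also compared with each other within each library. The log2 ratio of Cd80 to Cd86 was 2.09 ± 0.33 without Cre (SD, n = 4) and 2.05 ± 0.56 with Cre (SD, n = 3), a difference of -0.04 with an exact two-sided permutation p of 0.914. This was 1 of 4 ratios tested, for which 4 against 3 libraries cannot give a p under 0.0571. A single library could still depart from the group, as in Cre-positive 45, with a log2 ratio of 1.45 against 2.57 in Cre-positive 76. Cd80 and Cd86 lie 1792852 bases apart on chromosome 16. As neighbours of Cd80, 4 genes were taken, 2 on each side. Of these, Pla1a, a phospholipase gene 25788 bases away, was also lower (log2 fold change -1.44, adjusted p = 0.00592). Adprh, Timmdc1 and Poglut1 had log2 fold changes of 0.27, 0.27 and 0.14 and were not called. Around Cd86, Stfa3, a stefin gene, and Ildr1, an immunoglobulin-like domain receptor gene, were lower (log2 fold changes -3.43 and -1.19, adjusted p = 1.79e-04 and 0.0342). Slc15a2, a peptide transporter gene, had -2.84 and Casr, the calcium-sensing receptor gene, 0.29, and neither was called (adjusted p = 0.075 and 0.716).

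Both ligands of PD-1 were lower. Cd274, which encodes PD-L1 (ENSMUSG00000016496, chromosome 19, 29367455 to 29388095, plus strand), had 881.6, 1111.1, 711.7 and 862.3 normalized counts in Cre-negative libraries and 537.1, 273.4 and 132.9 in Cre-positive libraries. The groups did not overlap, but the Cre-positive libraries were spread over a 4.04-fold range, the Cre-negative ones over 1.56-fold. The log2 fold change of -1.70 (SE 0.36, adjusted p = 0.00845) became -1.20 without Cre-positive 80 and -2.20 without Cre-positive 45, and it was called in each case (adjusted p = 0.0166 and 6.90e-04). AC119228.1, an antisense transcript, overlaps exon sequence of Cd274 and had 45 to 107.4 normalized counts in Cre-negative and 31.3 to 49.1 in Cre-positive libraries. Without the strand setting of the counting, reads of the 2 genes cannot be told apart where they overlap.

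Pdcd1lg2, which encodes PD-L2 (ENSMUSG00000016498, chromosome 19, 29410919 to 29471157, plus strand), had 279.1, 335.9, 362.1 and 260.5 normalized counts in Cre-negative libraries and 93.0, 77.1 and 119.4 in Cre-positive libraries. It was tight in both groups, with a coefficient of variation of 15.4% and 22.1%, and the groups lay far apart. The log2 fold change was -1.68 (SE 0.27, adjusted p = 0.00177). Cd274 and Pdcd1lg2 are neighbours, 22824 bases apart. Plgrkt, a plasminogen receptor gene, lies 65 bases before Cd274 in position, so the Cd274 window shown above overlaps it. Plgrkt was not called. It had 2441 ± 290 and 2485 ± 222 normalized counts (SD over 4 and 3 libraries), a log2 fold change of 0.03 (adjusted p = 0.927). Ric1, the first neighbour taken after Pdcd1lg2, had -0.74 (adjusted p = 0.174). Ermp1 beyond it fell by 0.98 on the log2 scale (adjusted p = 0.0357). The log2 ratio of Cd274 to Pdcd1lg2 was 1.52 ± 0.37 and 1.5 ± 1.22 in the 2 groups (SD, n = 4 and 3; exact permutation p = 0.971), with 2.53 in Cre-positive 45 and 0.15 in Cre-positive 80.

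Cd83 and Icosl fell by less. Cd83 encodes a surface protein that holds MHC class II and CD86 at the cell surface (ENSMUSG00000015396, chromosome 13, 43784775 to 43803132, plus strand). It had 548.9, 339.8, 355.8 and 310.2 normalized counts in Cre-negative libraries and 188.1, 174.2 and 141.2 in Cre-positive libraries. Cre-negative 46 was the highest, and the groups stayed apart without it (log2 fold change -1.18, SE 0.26, adjusted p = 0.0104 with all libraries and 0.0404 without Cre-negative 46). Icosl, the ligand of the costimulatory receptor ICOS (ENSMUSG00000000732, chromosome 10, 78069302 to 78083913, plus strand), had 1114.6, 1088.4, 1455.8 and 1542.6 against 769.1, 679.0 and 975.8 normalized counts. The groups did not overlap, with Cre-positive 80 closest to the Cre-negative libraries. Its log2 fold change of -0.68 (SE 0.20) was the smallest called (adjusted p = 0.0374), and the call was lost when Cre-negative 46, 75 or 77 or Cre-positive 45 or 76 was left out (adjusted p = 0.0541 to 0.134), or with no filter on low genes (0.0562).

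Cd40 (ENSMUSG00000017652, chromosome 2, 165055627 to 165072948, plus strand), the only receptor of the set, was not called. It had 2267.7, 1982.8, 3204.3 and 2888.7 normalized counts in Cre-negative libraries and 1693.8, 1525.2 and 2333.5 in Cre-positive libraries. The groups overlapped through Cre-positive 80, which was above Cre-negative 46 and 48. Inside each of the sample number ranges given further on, the groups did not overlap. In the low range, with 1 Cre-positive library, this was so for every ligand gene, uncalled Icam1 and Cd276 included. So few libraries cannot show a difference for Cd40. Its log2 fold change was -0.48 (SE 0.21, adjusted p = 0.143). When libraries were scaled to their total reads, which moved the median of all genes from -0.10 to -0.29, Cd40 gave -0.68 and was called (adjusted p = 0.0301). The log2 ratio of Cd80 to Cd40 within a library went from -1.15 ± 0.64 to -2.54 ± 0.57 (SD, n = 4 and 3), the groups lying apart with the smallest p that the exact permutation test can give (0.0571, or 0.114 adjusted over the 4 ratios).

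Icam1 and Cd276 had higher means in Cre-positive libraries, and neither passed the test. Icam1, the adhesion ligand of the T cell integrin LFA-1 (ENSMUSG00000037405, chromosome 9, 21015985 to 21028817, plus strand), stood at 435.8, 409.8, 872.9 and 668.9 normalized counts without Cre and at 959.3, 739.0 and 989.3 with Cre. Cre-negative 75 lay inside the Cre-positive range. The log2 fold change was 0.64 (SE 0.26, adjusted p = 0.127), and without Cre-negative 75 it was 0.85 and called (adjusted p = 0.0412). Cd276, which encodes B7-H3, a B7 family protein of epithelia and tumours (ENSMUSG00000035914, chromosome 9, 58524298 to 58555437, minus strand), had 36.9, 73.9, 77.5 and 39.3 against 100.3, 73.1 and 110.0 normalized counts. The groups overlapped by a small margin (log2 fold change 0.78, SE 0.42, adjusted p = 0.251). Gm10657, on the other strand, overlaps Cd276 exons and was listed at 0 in Cre-negative 46 and 48, at 6.3 and 4.1 in Cre-negative 75 and 77, and at 16.7 to 31.0 with Cre. An antisense gene, Gm47079, also overlaps Icam1 exons in the annotation and was not analysed here.

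Vtcn1, which encodes the inhibitory ligand B7-H4 (ENSMUSG00000051076, chromosome 3, 100825459 to 100896922, plus strand), was barely read. It had 10.9, 14.8, 3.6 and 4.1 normalized counts in Cre-negative libraries and 0, 2.0 and 3.1 in Cre-positive libraries, that is, no more than 15 reads in any library. Its log2 fold change of -1.82 had an SE of 0.98 and was not called (adjusted p = 0.247). A difference was not detectable at this depth.

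**Figure D2:**
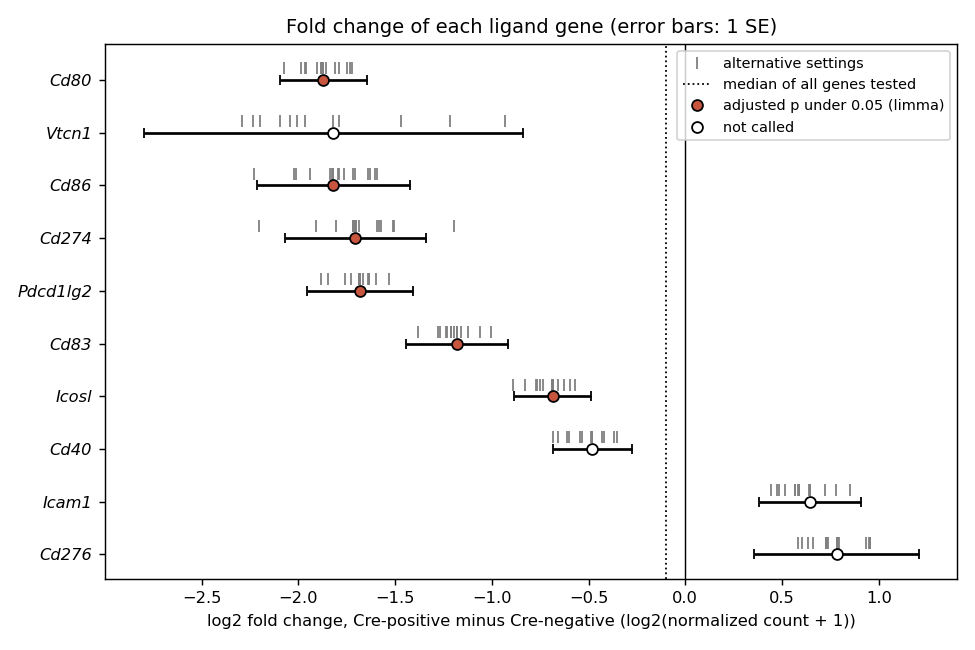
Log2 fold change (x axis, Cre-positive minus Cre-negative, on log2(normalized count + 1)) of each ligand gene, with error bars of 1 SE, filled points for genes called by limma and grey ticks for the alternative settings. Cd80, Cd86, Cd274 and Pdcd1lg2 lie between -1.87 and -1.68, Cd83 at -1.18 and Icosl at -0.68, and the ticks of every gene stay on 1 side of 0.

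Counting error was small beside the spread between libraries for most of the ligands. For Cd80 it gave a coefficient of variation of 2.82% in Cre-negative libraries, where 22.7% was observed, and for Cd274 in Cre-positive libraries 5.73% against 65.3%. In Cre-positive libraries it was a larger part of the spread for Cd83 (7.82% against 14.4%), Cd276 (10.4% against 20.2%) and Pdcd1lg2 (10.3% against 22.1%). It came nearest to the spread for Vtcn1 (77.5% against 92.4% in Cre-positive libraries). These limits cover counting alone, since no molecular identifiers are described.

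Among the Cre-negative libraries, the ligands differed between the low-numbered (46 and 48) and the high-numbered libraries (75 and 77). Cd80, Cd86, Cd274 and Vtcn1 were higher in both low-numbered libraries than in either high-numbered one, with means of 1391 and 949.3 normalized counts for Cd80 and 376.4 and 194.6 for Cd86. Cd40, Icosl and Icam1 were the other way round, with 2125 and 3047 for Cd40 and 422.8 and 770.9 for Icam1. What the numbers stand for is not given, and these are descriptions of 4 libraries. Inside the low range, with 2 Cre-negative libraries and 1 Cre-positive library, the log2 ratio of the means (Cre-positive over Cre-negative, 1 count added) was -1.91 for Cd80, -1.47 for Cd86, -0.89 for Cd274 and -1.71 for Pdcd1lg2. Inside the high range, with 2 libraries each, it was -1.70, -1.76, -1.95 and -1.65. Icam1 was uneven, at 1.18 in the low and 0.16 in the high range. With a term for the number range, limma called the same 6 genes, Cd274 at -1.57 and Cd86 at -1.64.

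**Figure D3:**
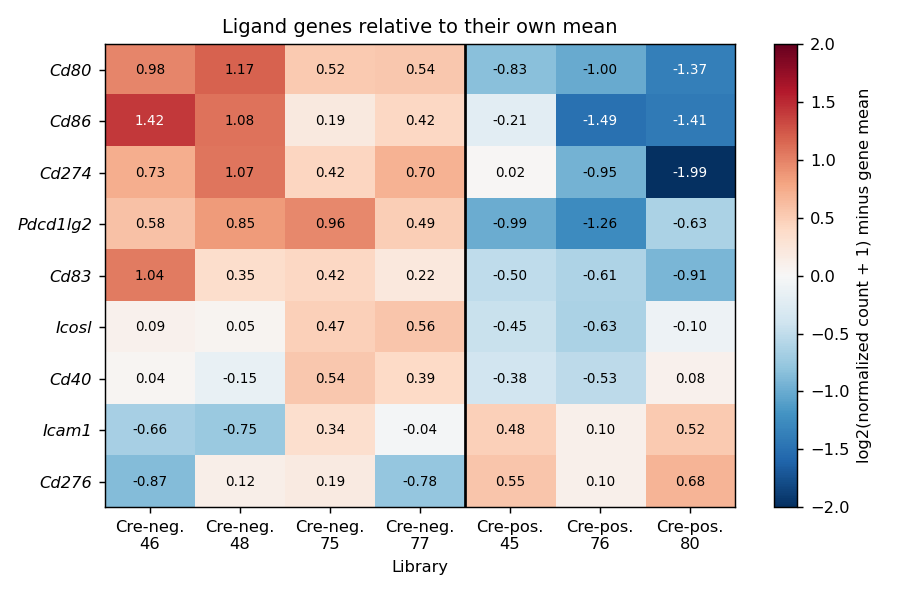
Log2(normalized count + 1) minus the gene's mean over the 7 libraries (colour and printed value) for 9 ligand genes in rows and the libraries in columns, Cre-negative left of the line. Cd80 runs from 1.17 in Cre-negative 48 to -1.37 in Cre-positive 80, and Cd274 is at 0.02 in Cre-positive 45 and at -1.99 in Cre-positive 80. Vtcn1 is left out because of its few reads.

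Levels can be compared between genes only per length, here as RPKM, reads per kilobase of exon scaled to the reads of the library, with exon lengths taken from GENCODE M21 transcripts inside the deposited gene span. In Cre-negative libraries Cd40 (73.9 ± 14.4, SD, n = 4) and Cd80 (67.5 ± 17.5) were the most abundant ligand transcripts and their ranges overlapped. Icosl (27.5 ± 4.68), Cd274 (24.2 ± 5.49), Pdcd1lg2 (17.5 ± 2.82), Cd83 (14.7 ± 3.75), Icam1 (13.3 ± 4.55) and Cd86 (7.63 ± 2.98) followed, each overlapping the next. Cd276 (1.53 ± 0.60) and Vtcn1 (0.32 ± 0.21) came last, each apart from the gene above it. The Cd80 length of 1701 bases came from 2 of its 3 annotated transcripts, so its level and place depend on that choice. Per length, on these exon lengths, Cd80 transcripts were the main CD28 ligand message and Cd86 the minor one.

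In Cre-positive libraries Cd40 kept the first place (45.9 ± 9.47, SD, n = 3), apart from all others. Icam1 (17.4 ± 2.20) came to the second place, level within the ranges with Cd80 (15.8 ± 3.05), and Icosl (14.8 ± 2.41) was next. Cd274 (7.37 ± 4.76), Cd83 (5.54 ± 0.87) and Pdcd1lg2 (4.72 ± 0.92) overlapped one another in that order. Cd276 (2.18 ± 0.39) and Cd86 (1.91 ± 1.03) overlapped, and Vtcn1 (0.055 ± 0.050) was last. These levels were scaled to total reads and so run lower in Cre-positive libraries than the normalized counts do.

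**Figure D4:**
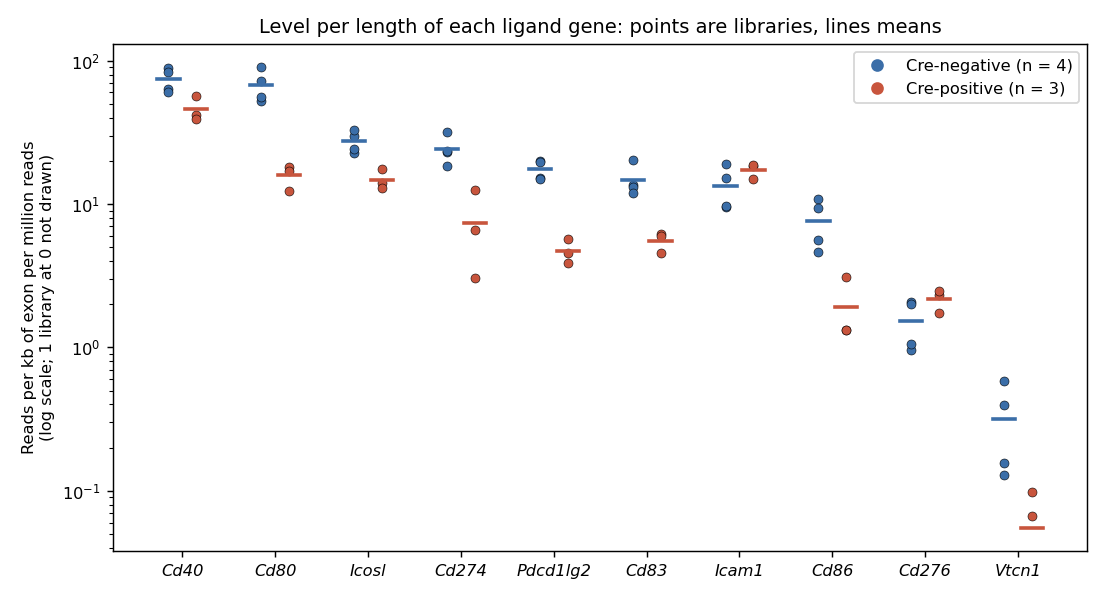
Level per length (y axis, log scale, RPKM) of the 10 ligand genes in order of their Cre-negative mean, with 1 point per library and lines at the means. Cd40 and Cd80 lead in Cre-negative libraries at 73.9 and 67.5, while in Cre-positive libraries Cd80 is at 15.8, beside Icam1 at 17.4 and Icosl at 14.8; Vtcn1 in Cre-positive 45, at 0, is not drawn.

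High MHC class II is the other mark of mature mTECs. Among 10 genes of MHC class II and mature mTECs only Aire, the regulator of tissue antigen expression, was called, lower at -0.56 on the log2 scale (4417 ± 767 to 2967 ± 308, adjusted p = 0.0395), and the median was 0.07. Aire lost its call when Cre-negative 75 or 77 or Cre-positive 45 or 76 was left out (adjusted p = 0.0921 to 0.133). H2-Aa, a class II chain gene, had 48425 to 96717 normalized counts in Cre-negative and 64350 to 88958 in Cre-positive libraries, and Ciita, the class II transactivator, had 1298 to 1802 and 1429 to 1981. The log2 ratio of Cd80 to Aire went from -1.93 ± 0.55 to -3.24 ± 0.40 (SD, n = 4 and 3), again with the smallest exact permutation p possible (0.0571, adjusted 0.114).

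In the CD40 and RANK signalling list 3 of 15 genes were lower and none higher, with a median of -0.37. Of all genes tested 9.11% were called lower and 4.66% higher. Whether this list or the interferon gamma list below exceeded that share was not tested. Rel and Nfkb1, NF-kB subunit genes, went from 940.9 ± 200 to 413.5 ± 118 and from 1548 ± 219 to 767.1 ± 147 (normalized counts ± SD over 4 and 3 libraries; log2 fold changes -1.20 and -1.02, adjusted p = 0.00639 and 0.00421). Traf1, a signalling adaptor of TNF receptors, fell by 1.08 on the log2 scale (adjusted p = 0.0172), but the call was lost when Cre-negative 46 or Cre-positive 76 was left out (adjusted p = 0.0529 and 0.0701) or with a Y-linked covariate (0.0555). Of 10 genes that connect interferon gamma to PD-L1, 2 were lower, with a median of -0.04. Stat3, a signal transducer of cytokine receptors, was 1 of them (log2 fold change -0.56, adjusted p = 0.0408). Its call was lost when any library other than Cre-negative 75 or Cre-positive 80 was left out (adjusted p = 0.0748 to 0.156), with no filter on low genes (0.063) or with a Y-linked covariate (0.0835). None of 11 genes that regulate the turnover of these ligands at the surface, such as Cmtm6, which protects PD-L1 from degradation, was called (median -0.11).

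Other ligands of T cells were called in part, where 13.8% of all genes tested were called (9.11% lower and 4.66% higher). Whether any of these lists exceeded that share was not tested. Of 9 tested B7 and butyrophilin relatives 2 were lower (median -1.20): Btnl2, an inhibitor of T cell activation, at 127.2 ± 31.7 without Cre and 15.3 ± 12 with Cre (normalized counts ± SD over 4 and 3 libraries; log2 fold change -3.34, adjusted p = 0.00369), and Btnl1, a partner of gut gamma delta T cells, by 1.61 on the log2 scale (adjusted p = 0.0497). Btnl1 lost its call under 9 of 17 alternatives, gave -0.94 without Cre-positive 45, and its reads may be shared with similar Btnl genes. Of 13 further coinhibitory ligands 3 were lower (median -0.28). Fgl1, a ligand of the inhibitory receptor LAG-3, ranged from 34.1 to 52.8 normalized counts without Cre and from 0 to 3.0 with Cre (adjusted p = 0.00274). Fgl1 passed the filter on low values only through its Cre-negative reads, so its place in that count is a description. Lgals3, a galectin gene, fell by 1.63 and Ceacam1, an adhesion molecule and TIM-3 ligand, by 2.19 on the log2 scale (adjusted p = 0.0103 and 0.0326), Ceacam1 without a call under 8 of 16 alternatives.

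None of 8 tested costimulatory ligands of the TNF family was called, and their median was -0.87. Cd70, the ligand of CD27 and named after its values were seen, had 1047 to 1399 and 1059 to 1318 normalized counts (adjusted p = 0.857). Of 9 tested adhesion ligands 1 was lower, Madcam1, a ligand of the gut homing integrin, at 580.3 ± 170 without Cre and 140.0 ± 25.7 with Cre (log2 fold change -2.01, adjusted p = 5.41e-04), and the median was 0.11. Among 11 tested receptors of these ligands, which T cells carry, only Cd28 was called, and it was higher. Without Cre, Cd28 stood at 64.5, 14.8, 13.5 and 32.1 normalized counts, and with Cre at 77.3, 275.4 and 139.1 (log2 fold change 2.45, adjusted p = 0.0192). The groups lay apart by a narrow margin, and the call was lost when Cre-positive 76 was left out or a Y-linked covariate added (adjusted p = 0.0894 and 0.0686). Of the 11 thymocyte and T cell markers none was called, and their summed normalized counts were 836.7 to 1594.8 in Cre-negative and 643.6 to 2700.6 in Cre-positive libraries.

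**Figure D5:**
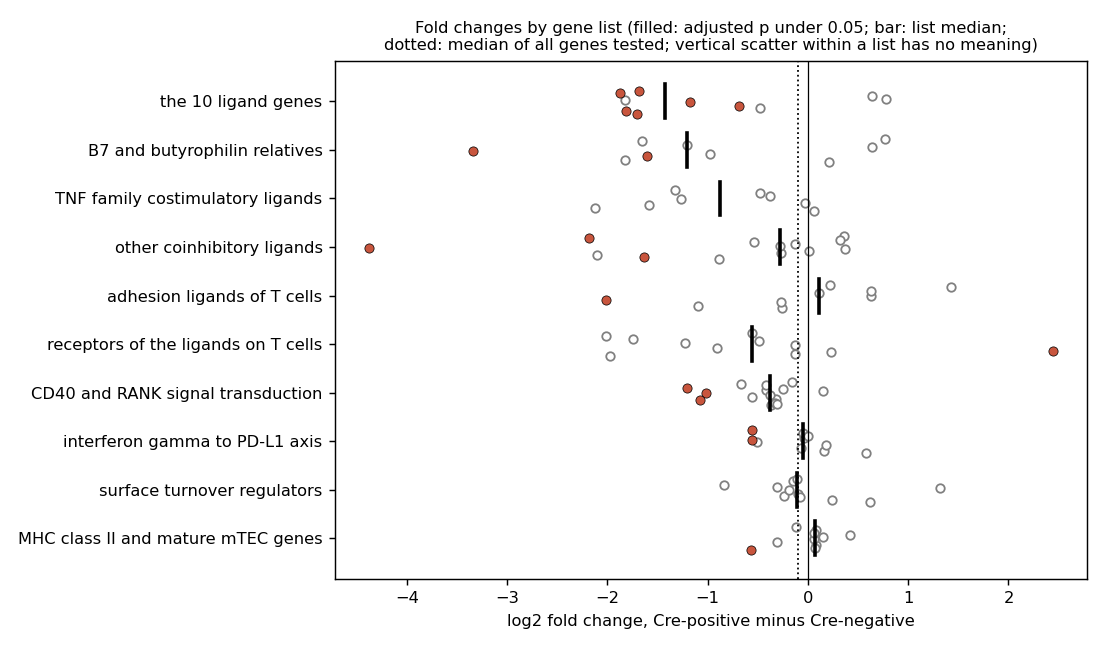
Log2 fold change (x axis, Cre-positive minus Cre-negative) of each tested gene in the 10 ligand genes and 9 further lists, with filled points for called genes, a bar at each list's median and a dotted line at the median of all genes tested (-0.10). The ligand genes have a median of -1.43, or -1.18 without the barely read Vtcn1. The lists of MHC class II genes and of surface turnover regulators have medians of 0.07 and -0.11.

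Dendritic cells, macrophages and B cells also carry CD80, CD86, CD83 and CD40, so their markers were read beside the ligands. Of 12 dendritic cell and macrophage markers 2 were lower, Adgre1 (296.4 ± 113 and 37.8 ± 16.1 normalized counts, SD, n = 4 and 3) and Itgam (82.9 ± 12.4 and 16.0 ± 2.57), and 1 was higher, Lyz2 (5180 ± 699 and 8366 ± 2408). Of the 12, 9 had a negative log2 fold change, and the median was -0.66. Their sum was 5935.6 to 7682.4 normalized counts without Cre and 8286.6 to 11968.5 with Cre, most of it from Lyz2. The other 11 summed to 1442.5 to 1552.1 without Cre and 822 to 1360.8 with Cre. These sums did not overlap. Adgre1 and Itgam are among the 11, and whether the set fell as a whole was not tested. Ptprc, the pan-leukocyte gene, had 163.4 to 336.9 and 113.1 to 639.9 normalized counts, and none of the 12 was at 0 throughout. Of 8 B cell markers 2 were higher, Fcer2a (415.6 ± 60.6 and 2879 ± 643) and Cr2 (344.7 ± 43.9 and 2303 ± 97.7), and Pax5 was lower (138.0 ± 56.5 and 41.2 ± 8.0). The sum of the 8 was 1214.2 to 1391.7 and 5310.3 to 6391.2. The part of such cells, and of cortical epithelium, in the ligand values was not tested.

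Of 10153 other tested genes whose mean reached 100 normalized counts, the 5 with the library profile nearest to that of Cd80 were Bcl2l1, Gfpt1, Vwa5a, Aebp2 and Il1rl2. Likeness was measured as the root mean square difference of the mean-centred log2 values over the 7 libraries, and it was 0.14 for Bcl2l1, the gene of the survival factor BCL-XL, and 0.17 to 0.19 for the rest. Without Cre, Bcl2l1 stood at 567.3, 659.9, 527.9 and 470.4 normalized counts, and with Cre at 148.4, 146.2 and 115.2. As with Cd80, Cre-negative 48 was the highest and Cre-positive 80 the lowest library, a likeness for which Bcl2l1 was chosen. The values were not scaled, so the measure also depends on how near a gene's fold change is to that of Cd80. Among the ligand genes, Cd86 (0.37), Pdcd1lg2 (0.39), Cd274 (0.42) and Cd83 (0.43) were nearest to Cd80, at ranks 79, 94, 119 and 129 of the 10153. Icam1 (1.38) and Cd276 (1.40), whose mean was too low to be ranked, were the farthest of the 8 others with a profile, Vtcn1 being left out for its few reads.

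The authors' deposited table gave an adjusted p under 0.05 to the same 6 ligand genes. It gives the Cre-negative over the Cre-positive level, with log2 values of 1.88 for Cd80 (adjusted p = 1.54e-11), 1.79 for Cd86 (3.63e-04), 1.5 for Cd274 (0.00133), 1.68 for Pdcd1lg2 (7.20e-08), 1.21 for Cd83 (3.45e-04) and 0.69 for Icosl (0.0187), per the authors' deposited table. The authors' deposited table gave Cd40, Icam1, Cd276 and Vtcn1 adjusted p of 0.154, 0.155, 0.218 and 0.221.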

How the data were processed

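The authors deposited 1 table for all 7 samples. Per the submitters' processing notes, STAR 2.7.9a and DESeq2 were used and the build was GRCm39; the sources used here do not give the counting tool or whether it used strand. Gene positions in the table equal GENCODE M21 on GRCm38 for 95.2% of 52489 genes and are given on that build. The deposited columns are, per the file headers, normalized counts, a signal made by dividing counts by a size factor, and variance-stabilized log2 values, which were not used. The table also holds the authors' log2 fold change, the fold change as a ratio, p-value, adjusted p-value and GC percent per gene, per the file headers. Whole reads were recovered through the unrounded mean, and 100% of values came out whole within 0.0501.

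The 22878 genes whose mean normalized count reached 5 were tested with limma 3.58.1 (intensity trend) on log2(normalized count + 1), so fold changes of low genes are understated. Alternatives used edgeR 4.0.16, DESeq2 1.42.0 and limma-voom on recovered reads, other scalings, pseudocounts, filters, covariates and left-out libraries. The count test was kept as an alternative because the deposited unit is normalized. The steps were tested on simulated data. Recovered totals were 9815958 to 12599078 reads in Cre-negative and 11383465 to 11623062 in Cre-positive libraries. Exact permutation tests were two-sided, with the smaller tail doubled.

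The ligand genes and lists were chosen with earlier results of these data known. Named were all 10 ligand genes, Ikzf1, at most 4 called genes per direction of each further list, and the 5 genes most like Cd80. Markers were a fixed list. Some genes of these lists are not reported here. Neighbouring genes, 2 on each side, were taken by position after values were seen, and not every annotated gene nearby is among them. In the list of turnover regulators, Marchf1 and Marchf8 were matched as March1 and March8, and Cd99 of the adhesion list had no match. Promoter sequences come from RefSeq (GRCm38.p6), which matched 7 of the 10 ligand genes. Further marker lists not shown with the results were fibroblast (2 of 6 lower) and endothelium (0 of 6 called). Tools were R 4.3.3, Python 3.11.15, numpy 2.4.6, pandas 2.3.3 and matplotlib 3.10.9.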

Additional observations from a re-analysis of the deposited data

Results flagged for a closer look

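Btnl2 had 174.3 normalized counts in Cre-negative 46 and 105.4, 114.3 and 114.8 in the other Cre-negative libraries, so that the highest library stood apart from the rest by 0.86 of the group's range. It was the only gene of 29 checked in this way, of which chance alone flags about 1 in 20. Without Cre-negative 46 the log2 fold change of Btnl2 was -3.18, against -3.34 with all libraries.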

How the results depend on the processing

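Cd80, Cd86, Cd274, Pdcd1lg2 and Cd83 were called lower under all 17 alternatives run, with log2 fold changes of -2.07 to -1.72, -2.23 to -1.59, -2.20 to -1.20, -1.88 to -1.53 and -1.38 to -1.0. Icosl was called under 11 of 17, Cd40 under 1 (library total scaling) and Icam1 under 1 (without Cre-negative 75), and Cd276 and Vtcn1 under none. No named gene changed sign under any alternative that tested it. The number of ligand genes called was 5 to 6 with 1 library left out, 7 with library total scaling, 5 without a filter and 6 otherwise. Over all genes, 3150 were called (1066 higher and 2084 lower). Leaving out 1 library gave 1990 to 2696, the lowest without Cre-negative 46. With the Y-linked covariate, the mean log2 level of Y-linked genes in each library, 2169 were called. DESeq2 on recovered reads called 4373. Library total scaling gave 583 higher and 2629 lower, and limma-voom 1120 and 1352. Vtcn1 was below the filter under 5 alternatives, namely edgeR, limma-voom, a mean of 50 normalized counts, and without Cre-negative 46 or 48. No paired analysis was possible because the genotypes share no sample number. Among the ligand genes, Vtcn1, with at most 15 reads in a library, is the one whose depth limits what can be seen.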
